A study of Rattus norvegicus with 44 samples.

Results

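A list of 43 genes that carry out or mark cell division was read in kidney RNA from obese ZSF1 rats given Enalapril, Compound 1 or both. The genes were taken from the deposited table by their symbols, and no measured value enters that rule. Of the 43, 42 have a row among the 28906 symbols of the deposited table, and Ccnb2 has none under its symbol and is not analysed here. The comparison across genes needed a value above 1 FPKM in at least 9 animals, where FPKM is a fragment count divided by transcript length and by the size of the library. Of the 42 genes, 35 passed this filter among 13482 tested, and 7 stayed under it (Ccne1, Bub1, Bub1b, Ttk, Cenpf, Kif4a and Anln).

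The ZSF1 obese rat carries leptin receptor mutations and develops diabetes, hypertension and progressive kidney disease. All 44 rats were obese males with an implanted telemetry device, were given their diet with or without drug from 22 weeks of age for 6 months, and gave 1 kidney library each. Vehicle was given to 11 rats, Enalapril, an inhibitor of angiotensin-converting enzyme, at 3 mg/kg/day to 9, Compound 1, a stimulator of soluble guanylate cyclase, at 1 and later 3 mg/kg/day to 12, and Enalapril at 3 mg/kg/day together with Compound 1 at 1 mg/kg/day to 12 (the combination). The dose of Compound 1 thus differed between the groups that received it, lean rats were not analysed here, and the tissue was a frozen portion of whole kidney with no sorting of cells.

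A dividing cell copies its genome, condenses and attaches its chromosomes to a spindle, separates them and splits. Cyclins and their kinases drive the steps, the Mcm helicase and nucleotide enzymes serve DNA copying, Aurora and Polo kinases and kinesins run mitosis, and the centralspindlin proteins guide the final cut. Most cells of the adult kidney rest, so these transcripts are low there, and they are known to increase when tubule cells, fibroblasts or immune cells divide after injury.

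The depth of each library is unknown, since FPKM hold no totals. Low FPKM values gave a depth relative to the other libraries of 0.653 to 1.27 in Vehicle and 0.821 to 1.37 over the treated animals. Its median was 0.87 in Vehicle, 1.12 on Enalapril, 1.00 on Compound 1 and 1.02 on the combination, so the groups were not equal in depth. Mitochondrial transcripts made up a mean of 27.5% of the summed FPKM in Vehicle, 32.8% on Enalapril, 30.2% on Compound 1 and 32.1% on the combination. All genes together were shifted against Vehicle, with a median log2 fold change of -0.15 on Enalapril, -0.07 on Compound 1 and -0.18 on the combination, and each difference below is to be read against these values. Vehicle animal 1003 stood apart: it had the highest FPKM of all 44 animals in 34 of the 42 genes, against 16.9% of all tested genes. In its group it also had the highest summed FPKM of markers of tubular injury, macrophages, fibroblasts and T and B cells, while its relative depth was 1.03. Counts that rest on it are given with and without it. The 10 kidney identity markers checked had a median above 1 FPKM in every group.

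**Figure D1:**
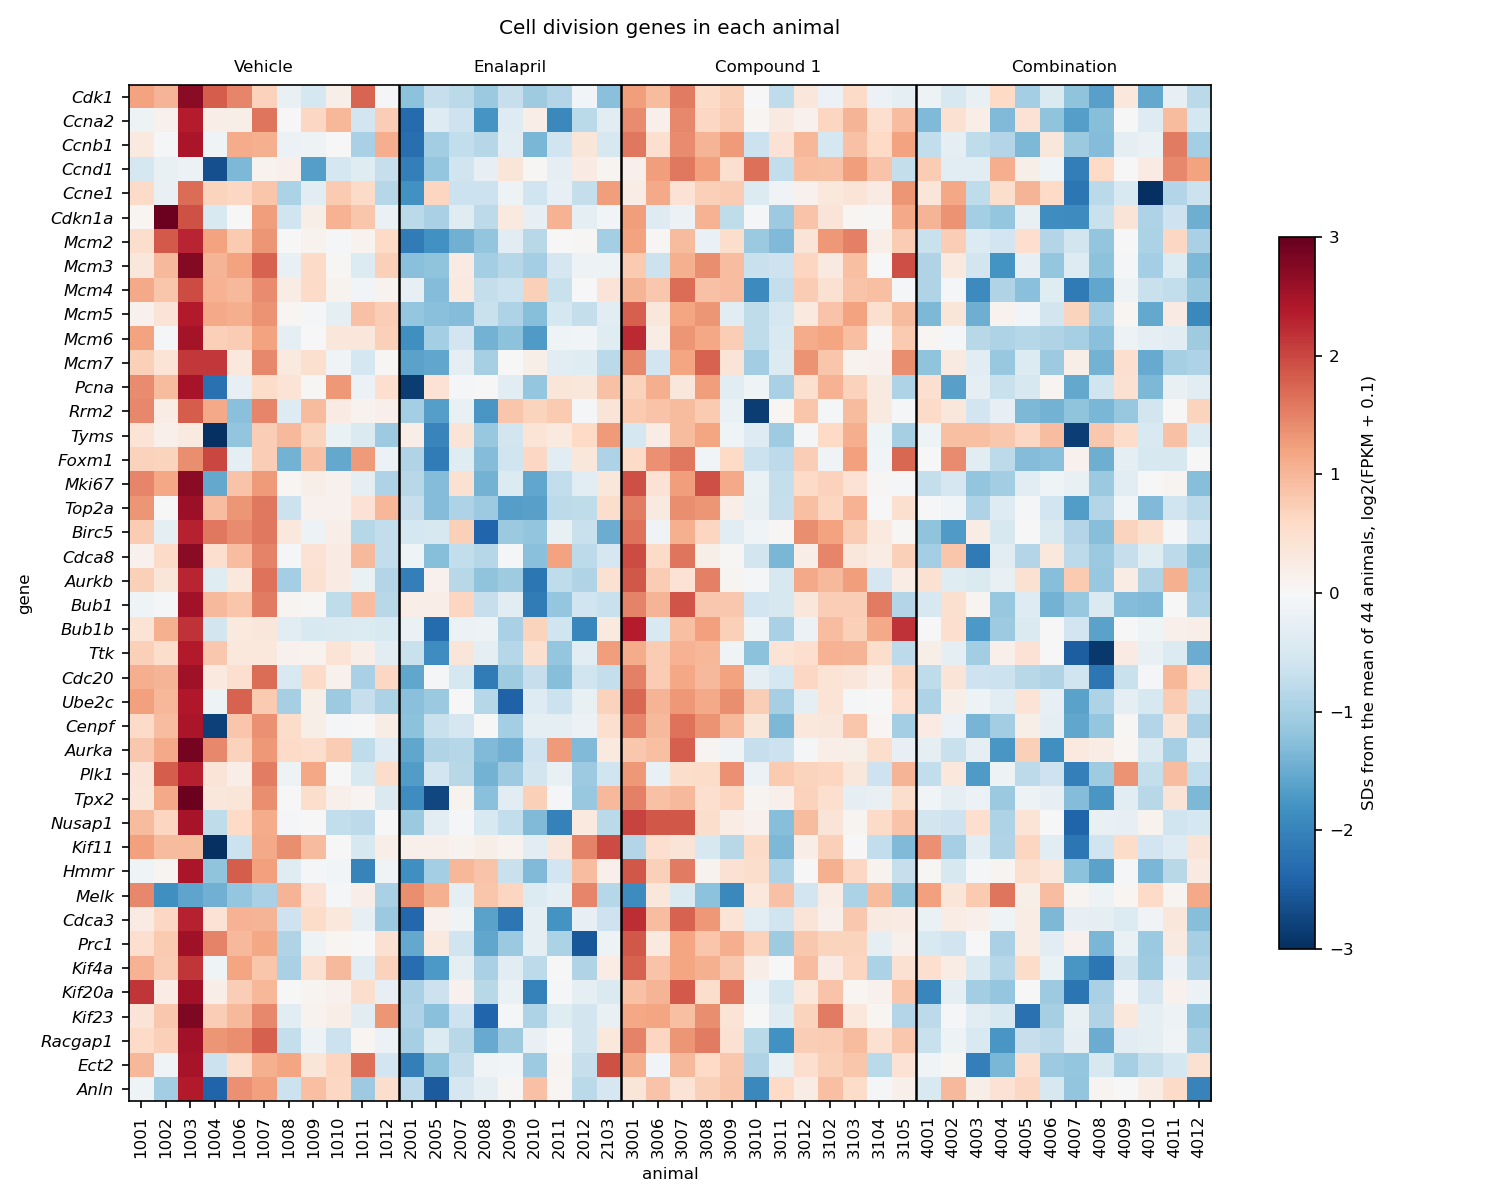
Heat map of the 42 cell division genes (rows, in order of role) in the 44 animals (columns, by group), coloured by the number of SDs from the gene's mean of log2(FPKM + 0.1) over all animals. Vehicle animal 1003 is the darkest red column, and the Enalapril and combination animals are mostly blue.

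Part of the cell division transcripts fell on Enalapril against Vehicle, and 14 of the 35 tested genes passed the test in that direction, which is 40.0%, against 4.04% of all genes tested. None was called higher, against 0.49% of all genes. A gene was called at a Benjamini-Hochberg adjusted p under 0.05 over all 13482 genes in limma where its fold was also beyond 1.5 up or 0.66 down. The called genes were Cdk1, Ccna2, Ccnb1, Mcm3, Mcm5, Top2a, Birc5, Aurkb, Cdc20, Plk1, Tpx2, Cdca3, Prc1 and Kif23. The median log2 fold change of the 35 was -0.55, with a range from -0.98 (Birc5) to 0.25 (Melk), beside -0.15 for all genes. In a portion of whole kidney, fewer dividing cells and less of these RNAs per cell cannot be told apart.

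The called genes came from most steps of division. They were 3 of 4 tested cyclins and kinases, 2 of 9 replication genes, 3 of 5 genes of mitotic chromosomes, 1 of 2 checkpoint and anaphase genes, 3 of 8 spindle genes and 2 of 5 cytokinesis genes. Median-of-ratios scaling divides each library by its typical ratio to all libraries and takes the shift of all genes away. With it, 7 were called lower (Cdk1, Ccna2, Top2a, Birc5, Plk1, Cdca3 and Kif23), against 1.31% of all genes, and the median of the 35 was -0.41 beside -0.01. Without Vehicle animal 1003, 9 were called, against 2.70% of all genes, and the calls of Ccnb1, Mcm3, Aurkb, Cdc20 and Tpx2 ended. When 7 inner medulla markers entered the fit as a covariate, by their mean, 0 of the 35 and 59 of all 13482 genes were called lower, the median of the 35 was -0.30, and the smallest adjusted p among them in limma was 0.0537 (Mcm5). The mean log2 level of those markers was 4.36 in Vehicle and 4.12 on Enalapril.

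With the combination, 9 of the 35 genes were called lower, which is 25.7%, against 6.39% of all genes, and 0 higher, against 0.994%. They were Cdk1, Mcm3, Mcm4, Rrm2, Top2a, Birc5, Tpx2, Kif20a and Kif23. The median of the 35 was -0.47, beside -0.18 for all genes. Fewer calls were left in several other fits. With median-of-ratios scaling 1 gene (Kif23) was called, against 2.46% of all genes, and without Vehicle animal 1003 the 3 called genes were Cdk1, Top2a and Kif23, against 4.98%. The inner medulla covariate left 4 (Cdk1, Top2a, Kif20a and Kif23), against 4.57%, and sample weights left 3, against 6.15%. Enalapril and the combination were each compared with the same 11 Vehicle animals. The 6 genes called in both were 42.9% of those called on Enalapril and 66.7% of those called on the combination. The share of all genes called in both was not counted.

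With Compound 1, 0 of the 35 genes were called, against 0.156% of all genes lower and 0.0445% higher. The median of the 35 was -0.02, beside -0.07 for all genes, and their log2 fold changes ran from -0.25 (Cdk1) to 0.34 (Ccnd1) with a median SE of 0.15. At an unadjusted p under 0.05 there was 1 of the 35, Ccnd1, against 13.3% of all genes. Without Vehicle animal 1003 the median of the 35 was 0.05 and again 0 were called. Of the 35, 23 had a log2 fold change below 0, and 13 did after median-of-ratios scaling.

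**Figure D2:**
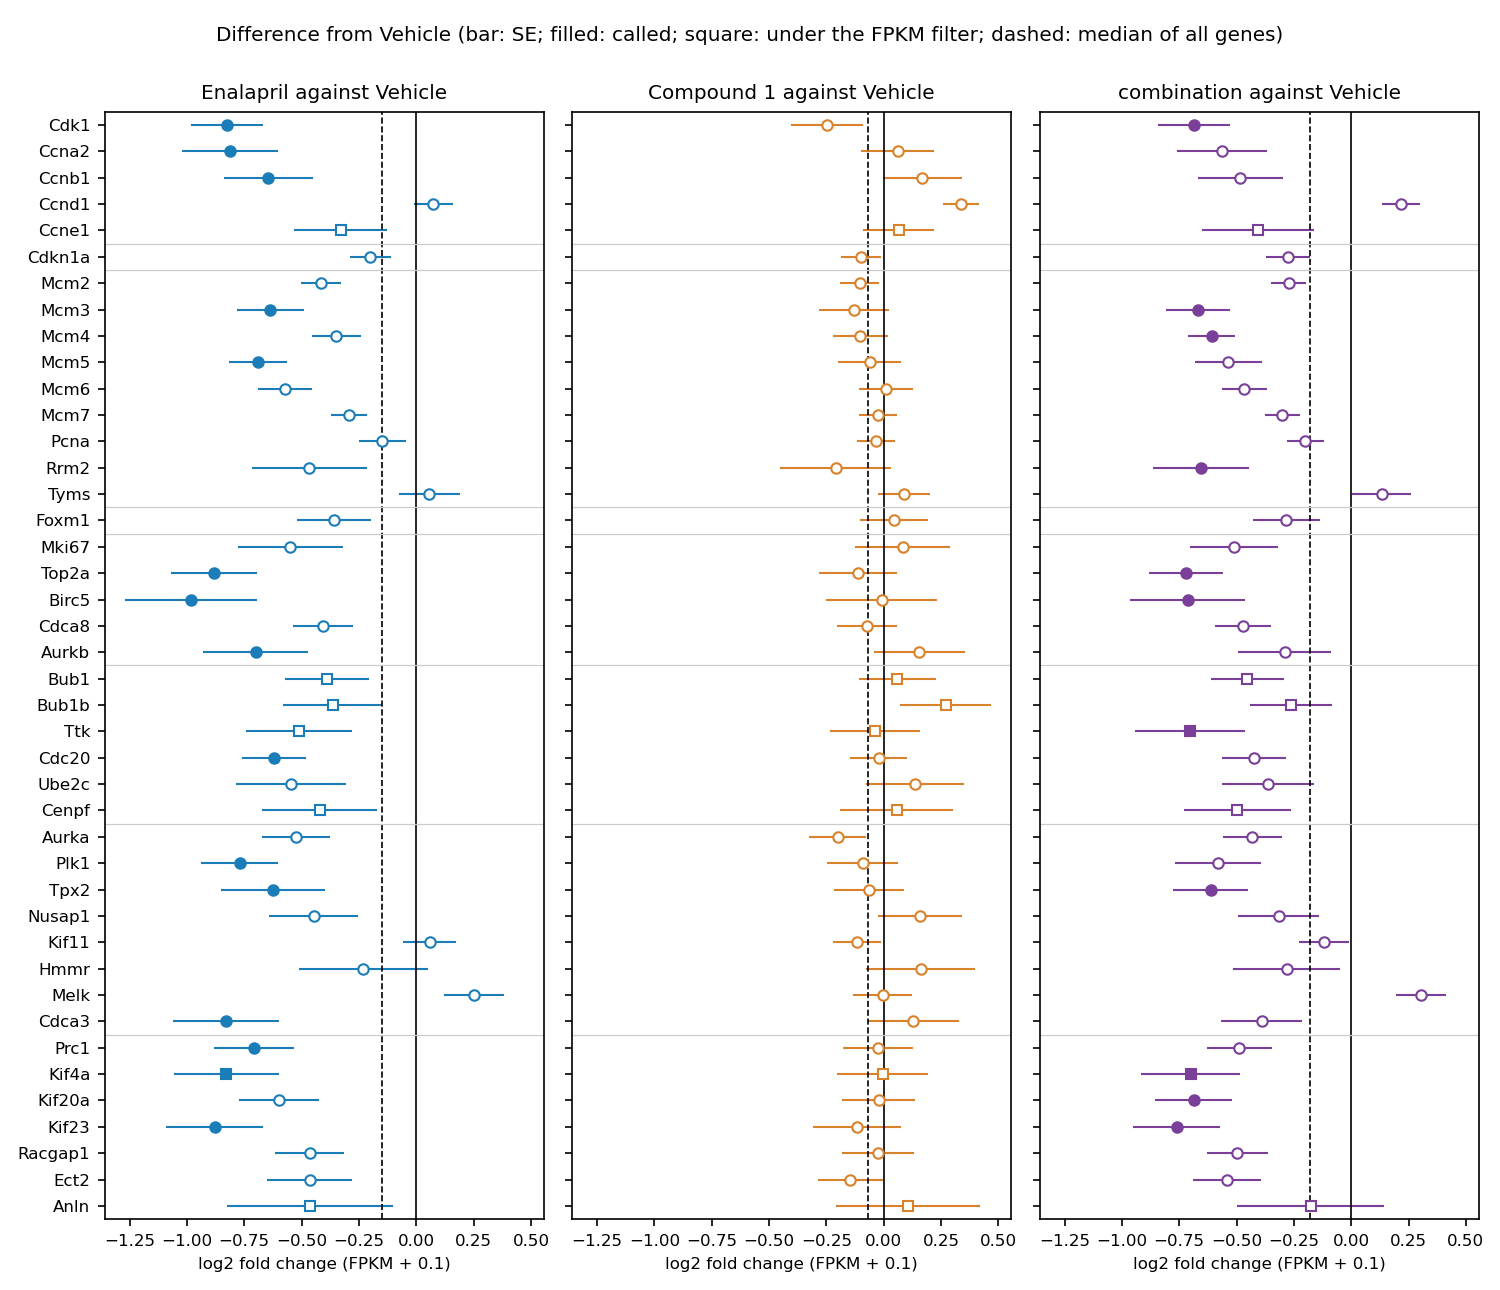
Log2 fold change against Vehicle (horizontal axis, on log2(FPKM + 0.1), bars 1 SE) of each of the 42 genes (vertical axis, grouped by role) for Enalapril, Compound 1 and the combination. Filled symbols passed the test, squares are the 7 genes under the FPKM filter, taken from a fit with a filter on the mean, and the dashed line is the median of all genes. Most Enalapril and combination symbols lie left of that line, and those of Compound 1 lie around 0.

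Many promoters of cell division genes share a CHR element, read by the DREAM and MuvB complexes, and CCAAT boxes, bound by NF-Y. Promoter sequences from RefSeq (build GRCr8, 250 bases before to 50 after the start) were matched by symbol and searched on both strands. The letters searched were TTTGAA and also TTCGAA for CHR, then CCAAT for that box, and for E2F sites TTCCCGC, with the further forms TTGGCGC and also TTCGCGC. A reversed CCAAT can overlap TTGGCGC. Of the 43 genes, 34 had an entry. CHR letters stood in 20 of 34, 58.8%, against 19.7% of all promoters, CCAAT in 25, 73.5%, against 37.5%, and E2F letters in 10, 29.4%, against 7.52%. Among the 11 genes called on Enalapril that had an entry, CHR letters stood in 7 and CCAAT in 11, and among the 15 tested and not called, in 7 and 10. E2F letters stood in 4 of those 11 and in 6 of those 15. The 150 bases before the start are printed for Cdk1, Top2a and Kif23, called with both treatments, and for Kif11 and Melk, not called and with fold changes near or above 0, in lower case with CHR and CCAAT letters of either strand in capitals (TTCAAA is TTTGAA read on the other strand, and ATTGG is CCAAT).
Cdk1: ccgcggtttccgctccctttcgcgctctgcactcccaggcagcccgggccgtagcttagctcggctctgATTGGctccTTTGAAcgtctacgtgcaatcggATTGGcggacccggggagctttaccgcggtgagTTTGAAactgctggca
Top2a: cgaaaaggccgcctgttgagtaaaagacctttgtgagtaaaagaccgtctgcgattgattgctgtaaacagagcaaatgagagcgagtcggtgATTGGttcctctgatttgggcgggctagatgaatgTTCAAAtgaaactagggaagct
Kif23: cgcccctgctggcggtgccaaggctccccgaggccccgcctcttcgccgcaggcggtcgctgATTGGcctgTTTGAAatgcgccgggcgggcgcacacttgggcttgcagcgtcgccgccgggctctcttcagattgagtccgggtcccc
Kif11: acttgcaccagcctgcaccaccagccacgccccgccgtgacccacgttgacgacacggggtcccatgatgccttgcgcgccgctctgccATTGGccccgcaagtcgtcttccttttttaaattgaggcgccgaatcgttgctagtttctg
Melk: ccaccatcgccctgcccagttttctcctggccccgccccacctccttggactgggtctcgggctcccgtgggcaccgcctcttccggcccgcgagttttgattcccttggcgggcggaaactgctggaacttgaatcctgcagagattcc
They lie at chr20:19265143-19265292, plus strand (Cdk1), chr10:84473094-84473243, minus strand (Top2a), chr8:71320585-71320734, minus strand (Kif23), chr1:244536717-244536866, plus strand (Kif11) and chr5:63336001-63336150, plus strand (Melk). Cdk1, Top2a and Kif23 hold CHR letters with a CCAAT upstream of them, the stretch of Kif11 holds CCAAT without CHR letters, and that of Melk holds neither. Birc5, Mcm3 and Tpx2 were also called with both treatments and are not printed. Birc5 has CHR letters 8 bases before the start but its CCAAT 213 bases before it, outside such a stretch. Mcm3 has CCAAT and no CHR letters, and Tpx2 had no entry. Ccnb1, Mcm5 and Cdca3, called on Enalapril, have no CHR letters either. Hmmr, Ect2 and Cdca8, tested and not called, also have CHR letters with a CCAAT upstream of them. Such letters are a description and no test of a factor, and the genes shown were chosen with their values known.

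Among the cyclins and kinases, Cdk1, the kinase that starts mitosis, was 2.76 to 7.96 (median 4.57) in Vehicle, 2.15 to 3.18 (median 2.44) on Enalapril, 2.55 to 5.49 (median 3.8) on Compound 1 and 1.91 to 4.0 (median 2.82) on the combination, in FPKM. Of the 9 Enalapril animals, 8 lay below every Vehicle animal, as did 5 of 12 combination animals. Its log2 fold change was -0.83 (SE 0.16, adjusted p = 8.17e-04) on Enalapril, -0.25 (SE 0.16, adjusted p = 0.479) on Compound 1 and -0.68 (SE 0.16, adjusted p = 0.00138) on the combination. Ccna2, cyclin A2 of S phase and early mitosis, was 0.977 to 3.16 (median 1.34) in Vehicle, 0.456 to 1.34 (median 0.954) on Enalapril, 1.27 to 2.21 (median 1.6) on Compound 1 and 0.612 to 1.81 (median 1.03) on the combination. All 9 Enalapril animals were below the Vehicle median, and 5 were below every Vehicle animal. Ccna2 fell on Enalapril, by 0.81 (SE 0.21, adjusted p = 0.00676) on the log2 scale, while the combination gave -0.56 (SE 0.20, adjusted p = 0.0217), short of the fold threshold. Ccnb1, cyclin B1 and the partner of Cdk1 in mitosis, was 1.45 to 5.33 (median 2.1) in Vehicle, 0.869 to 2.44 (median 1.59) on Enalapril, 1.65 to 3.85 (median 3.03) on Compound 1 and 1.25 to 3.83 (median 1.58) on the combination. The highest Vehicle animal was far above the rest of its group, and the groups overlapped. Against Vehicle the log2 fold change was -0.65 (SE 0.19, adjusted p = 0.0157) on Enalapril and -0.48 (SE 0.19, adjusted p = 0.0364) on the combination, and the call on Enalapril ended without Vehicle animal 1003 or without Enalapril animal 2001.

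Ccnd1, cyclin D1, which responds to growth signals before DNA copying starts, had fold changes above 0. It was 19.3 to 30.4 (median 27.2) in Vehicle, 21.2 to 31.4 (median 28.5) on Enalapril, 26.3 to 38.6 (median 34.2) on Compound 1 and 21.1 to 37.3 (median 30.6) on the combination, in FPKM. On the log2 scale the fold change was 0.07 (SE 0.08, adjusted p = 0.502) on Enalapril, 0.34 (SE 0.08, adjusted p = 0.0461) on Compound 1 and 0.22 (SE 0.08, adjusted p = 0.0361) on the combination, with no call because the fold stayed under the threshold. Of 12 Compound 1 animals, 10 lay above the Vehicle median. Cdkn1a, an inhibitor of cyclin-dependent kinases induced by p53 and by stress, was 20.2 to 35.3 (median 22.8) in Vehicle, 19.0 to 26.1 (median 21.2) on Enalapril, 18.7 to 27.1 (median 22.4) on Compound 1 and 16.5 to 27.4 (median 19.6) on the combination. It was among the more abundant of the 42 in FPKM and was not called in any comparison. The log2 fold change was -0.20 (SE 0.09, adjusted p = 0.092) on Enalapril and -0.28 (SE 0.10, adjusted p = 0.0222) on the combination, and -0.06 and -0.11 after median-of-ratios scaling.

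**Figure D3:**
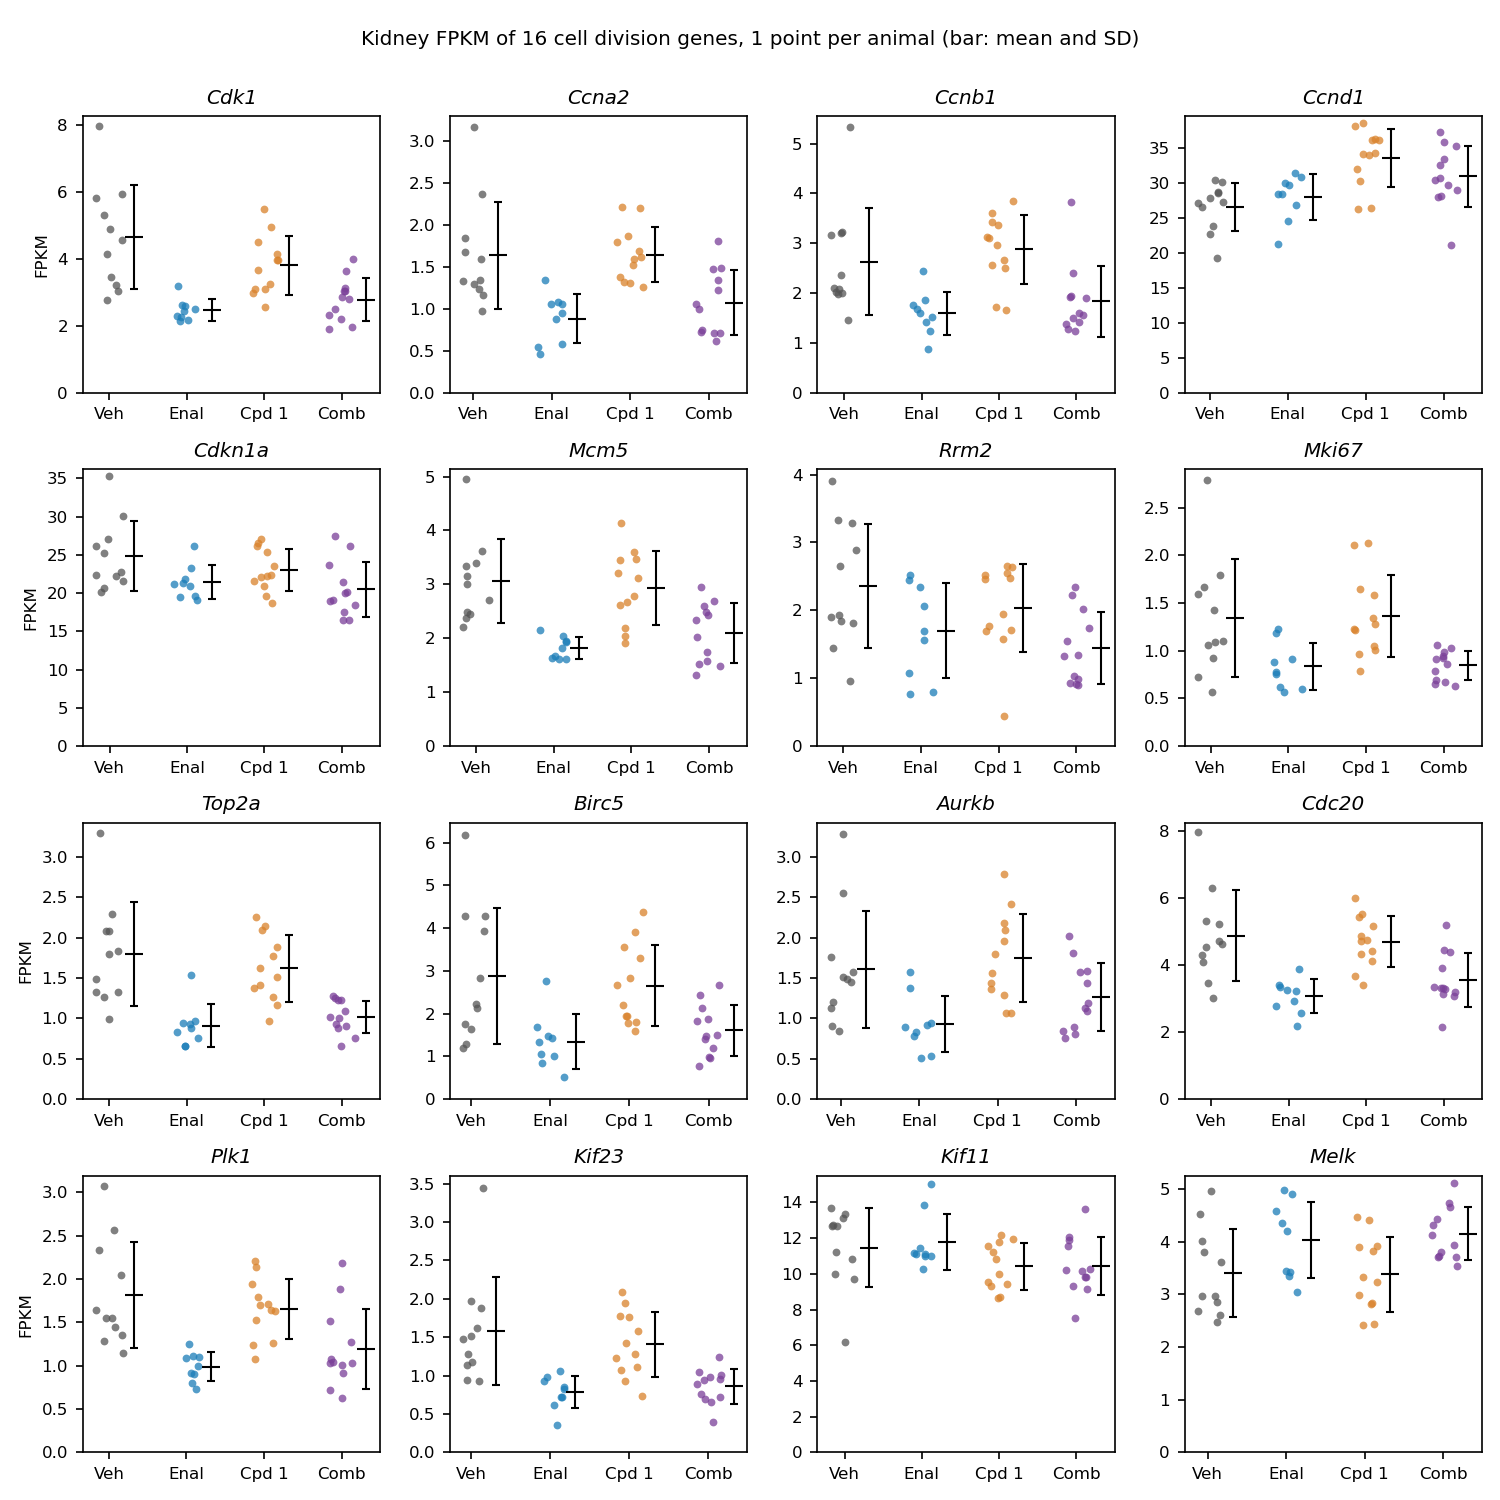
FPKM (vertical axis, linear, from 0) of 16 cell division genes in Vehicle (Veh), Enalapril (Enal), Compound 1 (Cpd 1) and combination (Comb) animals, 1 point per animal, with the group mean and SD as a bar. All 9 Enalapril points of Mcm5 sit below every Vehicle point, as do 8 of 9 for Cdk1, Top2a and Plk1, while those of Ccnd1, Kif11 and Melk lie among or above the Vehicle points.

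The Mcm proteins form the helicase that opens DNA for copying, and 3 of its 6 subunits were called lower in at least 1 of the comparisons with Vehicle. Mcm5 was 2.21 to 4.95 (median 3.01) in Vehicle, 1.6 to 2.16 (median 1.81) on Enalapril, 1.9 to 4.14 (median 2.95) on Compound 1 and 1.31 to 2.95 (median 2.19) on the combination, in FPKM. All 9 Enalapril animals lay below every Vehicle animal, which held for 1 of the 35 genes and for 0.86% of all tested genes. Its log2 fold change was -0.69 (SE 0.13, adjusted p = 6.29e-04) on Enalapril and -0.54 (SE 0.15, adjusted p = 0.00487) on the combination. Mcm3 was 2.57 to 6.9 (median 3.68) in Vehicle, 1.98 to 3.16 (median 2.23) on Enalapril, 2.37 to 5.35 (median 3.67) on Compound 1 and 1.66 to 3.21 (median 2.34) on the combination. It fell by 0.64 (SE 0.15, adjusted p = 0.0033) on the log2 scale on Enalapril and by 0.67 (SE 0.14, adjusted p = 5.80e-04) on the combination, and both calls ended without Vehicle animal 1003. Mcm4 was 3.0 to 5.02 (median 3.78) in Vehicle, 2.21 to 3.68 (median 2.88) on Enalapril, 1.89 to 4.66 (median 3.78) on Compound 1 and 1.79 to 3.04 (median 2.45) on the combination. Of 12 combination animals, 11 lay below every Vehicle animal, and the log2 fold change was -0.61 (SE 0.10, adjusted p = 8.84e-05) on the combination against -0.35 (SE 0.11, adjusted p = 0.0177) on Enalapril. The combination value was just past the fold threshold, and the call was lost in 7 of 23 fits without 1 animal. Mcm6 was 3.53 to 7.15 (median 4.57) in Vehicle, 2.39 to 3.75 (median 2.95) on Enalapril, 3.15 to 6.68 (median 4.72) on Compound 1 and 2.77 to 3.86 (median 3.08) on the combination, and on Enalapril it gave -0.57 (SE 0.12, adjusted p = 0.00154) on the log2 scale, short of the fold threshold. Mcm2 was 5.89 to 8.66 (median 6.54) in Vehicle, 4.16 to 5.95 (median 4.99) on Enalapril, 4.74 to 7.61 (median 6.38) on Compound 1 and 4.85 to 6.69 (median 5.39) on the combination, and Mcm7 was 9.9 to 15.0 (median 11.4) in Vehicle, 8.36 to 11.1 (median 10.1) on Enalapril, 9.14 to 14.2 (median 11.8) on Compound 1 and 8.48 to 11.6 (median 9.24) on the combination. Both also had adjusted p under 0.05 in limma with both treatments and folds too small for a call, from -0.27 to -0.42 on the log2 scale.

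Of the other replication genes, Rrm2, a subunit of ribonucleotide reductase, was 0.962 to 3.91 (median 1.93) in Vehicle, 0.766 to 2.52 (median 1.7) on Enalapril, 0.439 to 2.65 (median 2.2) on Compound 1 and 0.894 to 2.34 (median 1.33) on the combination, in FPKM. It fell on the combination, by 0.65 (SE 0.21, adjusted p = 0.0141) on the log2 scale, and was not called on Enalapril, at -0.47 (SE 0.25, adjusted p = 0.156). The groups overlapped widely, and the call ended without Vehicle animal 1001, 1003 or 1007. Pcna, the sliding clamp of DNA polymerase, which also serves repair, was 22.1 to 43.6 (median 32.9) in Vehicle, 20.3 to 34.7 (median 30.5) on Enalapril, 26.5 to 36.6 (median 32.4) on Compound 1 and 24.1 to 32.7 (median 28.8) on the combination. Against Vehicle the log2 fold change was -0.15 (SE 0.10, adjusted p = 0.267) on Enalapril and -0.20 (SE 0.08, adjusted p = 0.0462) on the combination, the latter -0.04 after median-of-ratios scaling. Tyms, thymidylate synthase, was 2.79 to 6.33 (median 5.39) in Vehicle, 3.52 to 6.74 (median 5.55) on Enalapril, 4.22 to 6.61 (median 5.14) on Compound 1 and 2.97 to 6.29 (median 6.04) on the combination. On the log2 scale the fold change was 0.06 (SE 0.13, adjusted p = 0.769) on Enalapril and 0.13 (SE 0.13, adjusted p = 0.403) on the combination, and neither passed the test.

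Foxm1, a transcription factor of the mitotic genes, was 1.38 to 3.49 (median 2.49) in Vehicle, 1.19 to 2.44 (median 1.77) on Enalapril, 1.69 to 3.25 (median 2.42) on Compound 1 and 1.41 to 2.99 (median 1.87) on the combination, in FPKM, and was not called. Its log2 fold change was -0.36 (SE 0.16, adjusted p = 0.0919) on Enalapril and -0.28 (SE 0.15, adjusted p = 0.111) on the combination, and all 9 Enalapril animals lay below the Vehicle median. Mki67, whose protein Ki-67 coats mitotic chromosomes and is the common stain for dividing cells, was 0.564 to 2.79 (median 1.11) in Vehicle, 0.561 to 1.23 (median 0.779) on Enalapril, 0.784 to 2.12 (median 1.25) on Compound 1 and 0.631 to 1.06 (median 0.883) on the combination. All 12 combination animals lay below the Vehicle median of Mki67, and none lay below every Vehicle animal. Mki67 was not called against Vehicle, at -0.55 (SE 0.23, adjusted p = 0.0704) on Enalapril and -0.51 (SE 0.19, adjusted p = 0.0325) on the combination. Top2a, the topoisomerase that untangles sister chromosomes, was 0.989 to 3.29 (median 1.8) in Vehicle, 0.659 to 1.54 (median 0.88) on Enalapril, 0.964 to 2.26 (median 1.57) on Compound 1 and 0.652 to 1.27 (median 1.01) on the combination. Of 9 Enalapril animals, 8 lay below every Vehicle animal. The log2 fold change of Top2a was -0.88 (SE 0.19, adjusted p = 0.00196) on Enalapril, -0.11 (SE 0.17, adjusted p = 0.793) on Compound 1 and -0.72 (SE 0.16, adjusted p = 0.00122) on the combination, and none of the fits that left out 1 animal ended its calls.

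Birc5, Aurkb and Cdca8 encode survivin, Aurora kinase B and borealin of the chromosomal passenger complex, which corrects the attachment of chromosomes to the spindle. Birc5 was 1.2 to 6.19 (median 2.23) in Vehicle, 0.516 to 2.76 (median 1.33) on Enalapril, 1.6 to 4.39 (median 2.43) on Compound 1 and 0.766 to 2.67 (median 1.49) on the combination, in FPKM. It had the largest fall of the 35 genes on Enalapril, by 0.98 (SE 0.29, adjusted p = 0.0137) on the log2 scale, and on the combination its log2 fold change was -0.71 (SE 0.25, adjusted p = 0.0228), a call that ended without Vehicle animal 1003. Aurkb was 0.848 to 3.29 (median 1.49) in Vehicle, 0.51 to 1.57 (median 0.898) on Enalapril, 1.06 to 2.78 (median 1.68) on Compound 1 and 0.762 to 2.03 (median 1.16) on the combination. The log2 fold change of Aurkb was -0.70 (SE 0.23, adjusted p = 0.0248) on Enalapril and -0.29 (SE 0.20, adjusted p = 0.244) on the combination. Cdca8 was 2.86 to 6.8 (median 3.92) in Vehicle, 2.49 to 4.68 (median 2.86) on Enalapril, 2.44 to 5.64 (median 3.7) on Compound 1 and 2.01 to 4.25 (median 2.83) on the combination. It was not called with either treatment, at -0.41 and -0.47.

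Among checkpoint and anaphase genes, Cdc20, the activator of the anaphase-promoting complex, was 3.01 to 7.97 (median 4.62) in Vehicle, 2.19 to 3.9 (median 3.23) on Enalapril, 3.4 to 6.0 (median 4.72) on Compound 1 and 2.15 to 5.21 (median 3.32) on the combination, in FPKM. It fell on Enalapril, by 0.62 (SE 0.14, adjusted p = 0.00277) on the log2 scale, a call lost in 4 of the 20 fits without 1 animal. With the combination its log2 fold change was -0.42 (SE 0.14, adjusted p = 0.0155). Ube2c, the ubiquitin-conjugating enzyme of that complex, was 2.21 to 8.52 (median 3.61) in Vehicle, 1.29 to 4.42 (median 2.63) on Enalapril, 2.29 to 6.52 (median 4.3) on Compound 1 and 1.8 to 4.51 (median 3.0) on the combination and was not called against Vehicle. The checkpoint kinases Bub1, Bub1b and Ttk and the kinetochore protein Cenpf stayed under the FPKM filter. Bub1b was 0.311 to 0.936 (median 0.343) in Vehicle, 0.128 to 0.525 (median 0.365) on Enalapril, 0.257 to 1.01 (median 0.555) on Compound 1 and 0.177 to 0.491 (median 0.385) on the combination. The groups of Bub1b overlapped, and at these levels a difference was hard to detect, with -0.37 (SE 0.22, adjusted p = 0.218) on the log2 scale on Enalapril and 0.27 (SE 0.20, adjusted p = 0.58) on Compound 1 in a fit with a filter on the mean.

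On the spindle, Plk1, the Polo kinase, was 1.15 to 3.07 (median 1.55) in Vehicle, 0.729 to 1.25 (median 1.0) on Enalapril, 1.08 to 2.21 (median 1.67) on Compound 1 and 0.629 to 2.18 (median 1.04) on the combination, in FPKM. Of 9 Enalapril animals, 8 lay below every Vehicle animal, and the log2 fold change was -0.77 (SE 0.17, adjusted p = 0.00221). With the combination it was -0.58 (SE 0.19, adjusted p = 0.0145), just short of the fold threshold. Tpx2, which activates Aurora kinase A, was 1.53 to 5.2 (median 2.06) in Vehicle, 0.635 to 2.57 (median 1.59) on Enalapril, 1.62 to 3.12 (median 2.18) on Compound 1 and 0.937 to 2.08 (median 1.62) on the combination. It fell by 0.62 (SE 0.23, adjusted p = 0.0398) on the log2 scale on Enalapril and by 0.61 (SE 0.16, adjusted p = 0.00435) on the combination, calls lost in 8 of 20 and 7 of 23 fits without 1 animal. Cdca3, a trigger of mitotic entry, was 1.17 to 4.97 (median 2.26) in Vehicle, 0.666 to 2.0 (median 1.44) on Enalapril, 1.46 to 4.76 (median 2.24) on Compound 1 and 1.05 to 2.18 (median 1.75) on the combination. The log2 fold change of Cdca3 was -0.83 (SE 0.23, adjusted p = 0.0105) on Enalapril and -0.39 (SE 0.18, adjusted p = 0.0716) on the combination. Aurka, the kinase that Tpx2 activates, was 1.53 to 3.78 (median 2.26) in Vehicle, 1.25 to 2.57 (median 1.49) on Enalapril, 1.56 to 2.92 (median 1.93) on Compound 1 and 1.17 to 2.23 (median 1.72) on the combination. Hmmr, a microtubule protein that also binds hyaluronan, was 0.341 to 2.25 (median 0.811) in Vehicle, 0.373 to 1.27 (median 0.659) on Enalapril, 0.561 to 1.78 (median 1.03) on Compound 1 and 0.416 to 1.02 (median 0.823) on the combination. Aurka, Nusap1 and Hmmr were not called against Vehicle, and their log2 fold changes ran from -0.52 to -0.23 on Enalapril.

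A pair of spindle genes had fold changes near or above 0 on Enalapril. Kif11, the kinesin that pushes spindle poles apart, was 6.19 to 13.7 (median 12.7) in Vehicle, 10.3 to 15.0 (median 11.1) on Enalapril, 8.63 to 12.2 (median 10.4) on Compound 1 and 7.52 to 13.6 (median 10.2) on the combination, in FPKM, and was the most abundant kinesin of the list. Against Vehicle the log2 fold change was 0.06 (SE 0.12, adjusted p = 0.722) on Enalapril and -0.12 (SE 0.11, adjusted p = 0.382) on the combination, the latter 0.04 after median-of-ratios scaling. Melk, a kinase known from dividing cells and listed here with the spindle genes, was 2.47 to 4.96 (median 2.98) in Vehicle, 3.05 to 4.99 (median 4.2) on Enalapril, 2.42 to 4.47 (median 3.28) on Compound 1 and 3.53 to 5.12 (median 4.04) on the combination. All 9 Enalapril and all 12 combination animals lay above the Vehicle median of Melk. On the log2 scale the fold change was 0.25 (SE 0.13, adjusted p = 0.148) on Enalapril and 0.30 (SE 0.11, adjusted p = 0.0258) on the combination, with a fold under the threshold, and the shift of all genes was in the other direction. In Vehicle animal 1003, which was highest in 34 genes, Melk was 2.61 FPKM, below the median of its group.

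At cytokinesis, Kif23, a kinesin of centralspindlin, was 0.936 to 3.45 (median 1.47) in Vehicle, 0.363 to 1.06 (median 0.825) on Enalapril, 0.736 to 2.08 (median 1.36) on Compound 1 and 0.39 to 1.24 (median 0.917) on the combination, in FPKM. Of 9 Enalapril and 12 combination animals, 7 and 6 lay below every Vehicle animal. The log2 fold change was -0.88 (SE 0.21, adjusted p = 0.00434) on Enalapril and -0.76 (SE 0.19, adjusted p = 0.00269) on the combination, and Kif23 was called with both treatments in both scalings. Racgap1, its partner in centralspindlin, was 1.9 to 4.68 (median 2.74) in Vehicle, 1.51 to 2.54 (median 2.0) on Enalapril, 1.39 to 3.59 (median 2.87) on Compound 1 and 1.42 to 2.25 (median 1.98) on the combination and was not called, at -0.46 (SE 0.15, adjusted p = 0.024) and -0.50 (SE 0.13, adjusted p = 0.00447). Prc1, which bundles the central spindle, was 1.76 to 5.35 (median 2.77) in Vehicle, 1.01 to 2.6 (median 1.73) on Enalapril, 1.66 to 4.29 (median 2.95) on Compound 1 and 1.51 to 2.59 (median 2.08) on the combination. It fell on Enalapril, by 0.71 (SE 0.17, adjusted p = 0.00515) on the log2 scale, and had -0.49 (SE 0.14, adjusted p = 0.00752) on the combination. Kif20a, a kinesin that carries Aurora kinase B to the central spindle, was 1.26 to 3.29 (median 1.49) in Vehicle, 0.658 to 1.44 (median 1.18) on Enalapril, 1.15 to 2.6 (median 1.76) on Compound 1 and 0.618 to 1.44 (median 1.07) on the combination. It fell on the combination, by 0.69 (SE 0.17, adjusted p = 0.00225) on the log2 scale, while on Enalapril it was -0.60 (SE 0.17, adjusted p = 0.0137), just short of the fold threshold. Ect2, the exchange factor that activates RhoA at the cut, was 1.39 to 3.53 (median 2.06) in Vehicle, 0.901 to 3.01 (median 1.37) on Enalapril, 1.28 to 2.36 (median 2.01) on Compound 1 and 0.898 to 1.97 (median 1.4) on the combination, and its log2 fold change was -0.47 on Enalapril and -0.54 on the combination, with no call.

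The 7 genes under the filter had an FPKM above 1 in 0 to 3 of the 44 animals. Ccne1, cyclin E1 of the start of S phase, was 0.402 to 1.21 (median 0.777) in Vehicle, 0.266 to 1.02 (median 0.473) on Enalapril, 0.513 to 1.05 (median 0.703) on Compound 1 and 0.0897 to 0.982 (median 0.483) on the combination, in FPKM, and its groups overlapped. With a filter on a mean FPKM above 0.1 over all animals, which does not depend on the groups, all 42 genes were tested. Then 15 were called lower on Enalapril, against 4.31% of all genes, and 11 on the combination, against 7.07%. Kif4a, a kinesin of chromosome arms and the central spindle, was 0.232 to 1.11 (median 0.584) in Vehicle, 0.0935 to 0.447 (median 0.26) on Enalapril, 0.235 to 0.931 (median 0.573) on Compound 1 and 0.104 to 0.527 (median 0.306) on the combination. It fell by 0.83 (SE 0.23, adjusted p = 0.0121) on the log2 scale on Enalapril and by 0.70 (SE 0.22, adjusted p = 0.0127) on the combination. Ttk, a kinase of the spindle checkpoint, was 0.27 to 1.05 (median 0.385) in Vehicle, 0.0941 to 0.618 (median 0.27) on Enalapril, 0.152 to 0.58 (median 0.457) on Compound 1 and 0.0251 to 0.406 (median 0.282) on the combination, and the log2 fold change was -0.70 (SE 0.24, adjusted p = 0.0234) on the combination and -0.51 (SE 0.23, adjusted p = 0.108) on Enalapril. Bub1 was 0.402 to 1.17 (median 0.547) in Vehicle, 0.255 to 0.657 (median 0.436) on Enalapril, 0.397 to 0.964 (median 0.684) on Compound 1 and 0.328 to 0.621 (median 0.422) on the combination. Cenpf was 0.0398 to 0.865 (median 0.38) in Vehicle, 0.15 to 0.373 (median 0.253) on Enalapril, 0.139 to 0.614 (median 0.391) on Compound 1 and 0.122 to 0.352 (median 0.218) on the combination. Anln, the anillin of the cleavage ring, was 0.068 to 1.74 (median 0.626) in Vehicle, 0.0609 to 0.772 (median 0.337) on Enalapril, 0.113 to 0.781 (median 0.615) on Compound 1 and 0.106 to 0.813 (median 0.496) on the combination. These 3 had log2 fold changes from -0.46 to -0.39 on Enalapril and were not called.

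The treatments were also compared with each other in a fit of all 4 groups. The difference of Enalapril from Compound 1 does not use the Vehicle mean, but the Vehicle animals enter the estimate of the spread behind its SE and p. In this comparison 13 of the 35 genes were called lower on Enalapril, against 1.89% of all genes, and 0 higher, against 0.326%. They were Ccna2, Ccnb1, Mcm5, Mki67, Top2a, Birc5, Aurkb, Ube2c, Plk1, Nusap1, Cdca3, Prc1 and Kif23. Without Vehicle animals 1003 and 1004 the number called lower was again 13, against 1.92% of all genes. Mki67 differed by 0.63 (SE 0.19, adjusted p = 0.0219) on the log2 scale in this comparison, Nusap1, a microtubule binder of the spindle, by 0.61 (SE 0.17, adjusted p = 0.0159), and Ube2c by 0.68 (SE 0.21, adjusted p = 0.0224), each lower on Enalapril. Nusap1 was 0.657 to 1.9 (median 0.86) in Vehicle, 0.424 to 0.944 (median 0.669) on Enalapril, 0.553 to 1.65 (median 1.03) on Compound 1 and 0.369 to 1.01 (median 0.754) on the combination, in FPKM. Cdca3 had an adjusted p of 0.00161 in limma at -0.96, and all 9 Enalapril animals lay below the Compound 1 median of Cdca3. With median-of-ratios scaling 10 genes were called, against 1.2% of all genes, and with the inner medulla covariate 0, against 0.0964%. The log2 difference of the inner medulla markers was below 0 for 7 of 7 in this comparison, 1 of them called lower, and their mean log2 level was 4.12 on Enalapril and 4.41 on Compound 1.

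The combination against Compound 1 gave 6 genes lower (Ccna2, Ccnb1, Top2a, Birc5, Kif20a and Kif23), against 2.05% of all genes, and 0 higher, against 0.274%, and these groups differ in Enalapril and in the dose of Compound 1. Their log2 differences ran from -0.70 (Birc5) to -0.61 (Top2a). With median-of-ratios scaling 0 were called in this comparison, against 1.13% of all genes. The combination against Enalapril gave 0 genes by limma, against 0.00742% of all genes lower and 0 higher. At an unadjusted p under 0.05 there were 2 of the 35, against 10.4% of all genes. The log2 differences ran from -0.26 (Mcm4, approximate 95% interval -0.49 to -0.03) to 0.44 (Cdca3, 0.04 to 0.84), and the interval was -0.15 to 0.43 for Cdk1 and -0.16 to 0.48 for Top2a. Such intervals do not show that the treatments acted alike on these genes. The interaction of Enalapril and Compound 1, whose doses were not matched, gave 0 genes by limma, against 0.00742% of all genes, with 1 of the 35 at an unadjusted p under 0.05, against 4.29% of all genes.

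The spread among animals depended on Vehicle animal 1003. The SD in FPKM was larger in Vehicle than on Enalapril for 42 of 42 genes, than on Compound 1 for 39 and than on the combination for 40, and without that animal for 34, 21 and 36. Over the 42 genes the median coefficient of variation was 33.5% in Vehicle, 26.4% on Enalapril, 23.0% on Compound 1 and 22.5% on the combination, and it was 24.9% in Vehicle without that animal. In single animals, 27 to 39 of the 42 genes lay below the Vehicle median on Enalapril, 28 to 40 on the combination, 5 to 36 on Compound 1 and 1 to 33 in Vehicle itself. The share of all genes below it was not counted. All genes had a median log2 fold change of -0.15 on Enalapril, -0.18 on the combination and -0.07 on Compound 1, so part of these counts can be that shift. Compound 1 animal 3011, with 36, and Compound 1 animal 3007, with 5, mark the breadth of that group.

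Mki67 and Top2a, a pair of proliferation markers, were correlated across animals within each group, as were Mki67 and Cdkn1a, 8 relations in all. All values of r were taken on log2(FPKM + 0.1). For Mki67 with Top2a, Pearson's r was 0.84 across the 12 Compound 1 animals (permutation test, two-sided, adjusted p = 0.00472), Spearman's rho was 0.79 (permutation test, adjusted p = 0.0282), and r was 0.76 without the 2 animals farthest from the median of Mki67. It was 0.51 in Vehicle (n = 11, permutation test, adjusted p = 0.195), 0.60 on Enalapril (n = 9, exact permutation test, adjusted p = 0.195) and -0.06 on the combination (n = 12, permutation test, adjusted p = 0.904). Spearman's rho was 0.46, 0.47 and -0.05 in those groups, with adjusted permutation p of 0.405, 0.405 and 0.956. For Mki67 with Cdkn1a, r was 0.60 in Vehicle, 0.28 on Enalapril, 0.47 on Compound 1 and 0.04 on the combination, and the smallest adjusted permutation p was 0.195. Values of a pair share the scaling of their library, and after median-of-ratios scaling r of Mki67 with Top2a was 0.78 on Compound 1 (permutation test, adjusted p = 0.0242), with rho 0.71 (permutation test, adjusted p = 0.104).

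Other genes of the same pathway were counted the same way. Of 30 tested further replication genes, 4 were called lower on Enalapril, 0 on Compound 1 and 6 on the combination, where 4.04%, 0.156% and 6.39% of all genes were. Gmnn, which limits DNA copying to a single round, had log2 fold changes of -0.73, -0.41 and -0.94, Dbf4, which activates the Cdc7 kinase, -0.71, -0.36 and -0.90, and Timeless, of the replication fork, -0.44, -0.16 and -0.67. Of 40 further genes listed here under mitosis, 13, 0 and 11 were called lower in the same order. Among them Cdca7, Pkmyt1, an inhibitory kinase of Cdk1, and Dlgap5, a spindle protein, were at -1.13, -0.91 and -0.89 on the combination. None of 18 regulators of the start of S phase was called in these comparisons by limma, at medians of -0.20, -0.10 and -0.22. Of 23 kinase inhibitors and p53 targets, 1, 0 and 3 were called lower, the first near the share of all genes, with the inhibitor Cdkn2b at -1.05 on Enalapril and 0.19 on Compound 1, and Pmaip1 and Plk2 at -0.83 and -0.60 on the combination. Median-of-ratios scaling left 1 and 2 replication, 2 and 5 mitosis and 1 and 2 inhibitor genes called on Enalapril and the combination, against 1.31% and 2.46% of all genes, and none of these lists had a gene called higher.

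Markers of injury and of cells other than tubule cells moved with the same groups. Their counts called lower stand beside 4.04% of all genes on Enalapril and 6.39% on the combination. The summed FPKM of 15 tubular injury genes ran from 4814 to 10431 in Vehicle, 3004 to 4915 on Enalapril, 3526 to 10679.7 on Compound 1 and 2637 to 4826 on the combination, and 9 of 15 were called lower on Enalapril and 11 on the combination, where Cd44, Anxa1 and Anxa2 fell by 0.92, 0.97 and 0.74 on the log2 scale. For 14 macrophage markers the sums ran from 1119.5 to 2288, 688 to 1423, 909 to 2032 and 805 to 1369 in the same order, with 6 and 9 called lower, Cd14 and Fcgr1a in both. Sums of 15 T and B cell markers ran from 86.7 to 160.3, 71.9 to 98.1, 72.2 to 147 and 65.7 to 108, with 9 and 12 called lower, Lck and Cd5 in both. For 10 fibroblast markers they ran from 415 to 681, 258 to 468, 328 to 681 and 320.3 to 472, with 6 and 4 called lower, Col3a1 and Col1a1 in both. The 7 inner medulla markers ran from 167 to 294, 148 to 226, 196 to 287 and 185 to 286, the 10 kidney identity markers from 1978 to 3190.1, 2415 to 3347, 2045 to 3108 and 2234 to 3383, and 4 erythroid precursor genes from 375 to 932, 488 to 1253, 418 to 1337 and 476 to 1292, with 0 called against Vehicle among the 7, the 10 and the 2 erythroid genes that passed the FPKM filter. With the filter on the mean all 4 erythroid genes were tested and 1 was called lower on the combination, against 7.07% of all genes. After median-of-ratios scaling 4 and 7 injury, 0 and 2 macrophage, 3 and 5 T and B cell and 4 and 3 fibroblast markers were called lower on Enalapril and the combination, against 1.31% and 2.46% of all genes. No marker of any list was at 0 in all animals. On Compound 1 none of these markers passed the test in limma, against 0.156% of all genes called lower and 0.0445% higher. The part of these cells, and of the injury genes, in the fall of the cell division genes was not tested.

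**Figure D4:**
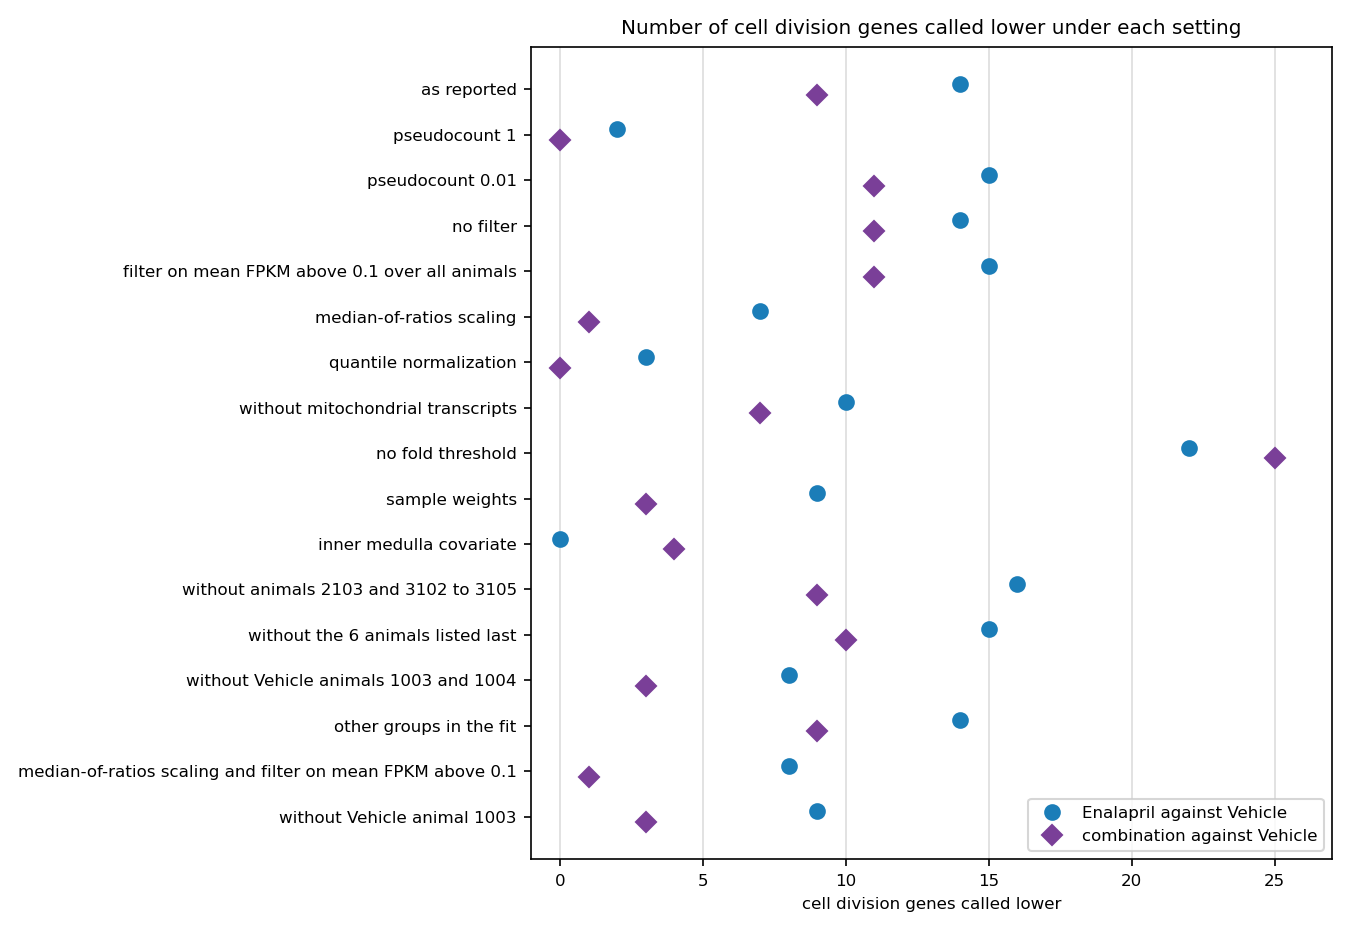
Number of cell division genes called lower (horizontal axis) under each processing setting (vertical axis) for Enalapril (circles) and the combination (diamonds) against Vehicle. The count runs from 0 to 22 on Enalapril and from 0 to 25 on the combination.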

How the data were processed

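Kidney mRNA of 44 rats was sequenced from stranded libraries, 1 per animal, in groups named in the sample labels. The authors deposited FPKM per gene on build rn6, and how reads were aligned and counted is not stated in the sources used here. The table has 32883 rows, and the row of highest mean stood for a symbol with several rows. The authors tested raw counts with DESeq2, whereas the deposited values are not counts, so log2(FPKM + 0.1) was tested with limma 3.58.1 (R 4.3.3), trend included. The filter and thresholds followed the paper. Each treatment was fitted with Vehicle alone, and other comparisons came from a fit of all 4 groups. Adjustment over all 13482 genes followed Benjamini and Hochberg. Correlations used permutation tests, exact for 9 animals and with 100000 resamples otherwise (scipy 1.17.1). Fold changes are on the log2(FPKM + 0.1) scale, which understates changes of low genes, and give no counting interval. As a check, limma was run on the measured values with group means removed, animals shuffled and known changes added to some genes. Its outcome is not reported here.

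The genes and lists were chosen with earlier results of these data known. All listed genes are accounted for, values are given in full for the main markers and every gene called, and up to 3 called genes of smallest p are named from each further list. Kif4a, Ttk, Kif11 and Melk are described after their values were seen. Empty columns of the table (2) were left out. The alternatives tried were a filter on the mean, no filter, pseudocounts of 0.01 and 1, median-of-ratios scaling, quantile normalization, removal of 13 mitochondrial transcripts, no fold threshold, sample weights, an inner medulla covariate, other sets of animals or groups, and fits without each single animal. Median-of-ratios scaling together with the filter on the mean was added after the data were seen.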

Additional observations from a re-analysis of the deposited data

Results flagged for a closer look

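Only the 9 Enalapril animals formed a group of a size in which a sample far from the others was looked for, with Dixon's test. Of 42 genes, 4 had such an animal, and chance flags about 1 in 20. Cdk1 was 3.18 FPKM in animal 2012, against 2.15 to 2.61 in the other 8. Top2a was 1.54 FPKM in animal 2103, against 0.659 to 0.966. Cdca8 was 4.68 FPKM in animal 2011, against 2.49 to 3.40. Ect2 was 3.01 FPKM in animal 2103, against 0.901 to 1.74. Each of the 4 was the highest of its group, and Cdk1 and Top2a kept their calls in every fit that left out 1 animal.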

How the results depend on the processing

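No paired analysis was possible because animal numbers were not shared between groups. Of the 35 genes, 14 were called lower against Vehicle on Enalapril and 9 on the combination, against 4.04% and 6.39% of all genes. In the same order the number called lower was 2 and 0 with a pseudocount of 1 (all genes 1.54% and 2.64%), 7 and 1 with median-of-ratios scaling (1.31% and 2.46%), 3 and 0 with quantile normalization (1.05% and 1.65%), 22 and 25 with no fold threshold (26.6% and 39.3%), 9 and 3 with sample weights (2.8% and 6.15%), 0 and 4 with the inner medulla covariate (0.438% and 4.57%), and 8 and 3 without Vehicle animals 1003 and 1004 (2.44% and 4.7%). Without mitochondrial transcripts it was 10 and 7 (2.55% and 5.15%), where the median of all genes was -0.09 and -0.14. With median-of-ratios scaling and the filter on the mean together, added after the data were seen, the number called lower was 8 and 1 of 42 (1.51% and 2.98%). Leaving out 1 animal gave 9 to 17 genes on Enalapril and 3 to 11 on the combination, both lowest without Vehicle animal 1003. For the combination against Compound 1, 6 of the 35 genes were called. The number was 0 with a pseudocount of 1 and with median-of-ratios scaling (all genes either way 0.853% and 1.76%). It was also 0 with quantile normalization and with the covariate (1.58% and 0.623%). Without the 6 animals listed last it was 11 (all genes lower 3.32%). With no fold threshold it was 23, 1 of them (Melk) higher (all genes either way 22.2%). It was 2 of 42 with median-of-ratios scaling and the filter on the mean (1.43%). For Enalapril against Compound 1, with 13 called, it was 2 with a pseudocount of 1 (0.853%), 7 with quantile normalization (1.02%), 0 with the covariate (0.0964%) and 23 with no fold threshold (10.9%). With Compound 1, 1 gene (Ccnd1, higher) passed with no fold threshold (all genes either way 0.475%) and 0 otherwise. Of all genes, 0.104% were called on Compound 1 with a pseudocount of 1 and 0.445% with the covariate. A larger pseudocount shrinks the folds of low genes by construction, and for the other settings the cause was not tested. No call against Vehicle changed its sign in settings that kept each group whole or left out named animals together, but fold changes that were not called did, for 5 of the 35 genes on Enalapril, 16 on Compound 1 and 1 on the combination. With the inner medulla covariate the log2 fold change on Enalapril went from -0.47 to 0.05 for Rrm2. The median of the 35 on Compound 1 went from -0.02 to 0.04 with median-of-ratios scaling. Low FPKM limit Bub1, Bub1b, Ttk, Cenpf, Kif4a and Anln most.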
